A study of Mus musculus with 9 samples.

Results

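The data describe 7 genes in mouse brain RNA after cerebral venous sinus thrombosis (CVST). They are Aqp4, which encodes the water channel aquaporin-4, and genes whose proteins hold or accompany this channel at the astrocyte endfoot, namely Dag1, Dtna, Dmd, Utrn, Agrn and Kcnj10. Members were chosen by symbol among 20731 genes in the count table. All 7 were found, each on a single row, and all 7 were among the 14746 genes that passed the filter on low counts. RNA from 9 male C57BL/6J mice aged 8 to 10 weeks was sequenced, 3 mice per group, on day 2 after thrombosis of the superior sagittal sinus was induced with ferric chloride. Every mouse carried the thrombosis. The CVST group had nothing further. The CVST+Ligation group (CVST_Ligation in the labels) also had bilateral ligation of the cervical lymph nodes. The 4-PBA group (CVST_Ligation_4_PBA) had thrombosis, ligation and an intraperitoneal dose of 100 mg/kg of 4-phenylbutyric acid, a chemical chaperone that eases protein folding stress in the endoplasmic reticulum. Sham-operated mice were not analysed here, so no value is set against uninjured brain.

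Astrocytes wrap the brain's vessels with flattened processes, the endfeet, and pack aquaporin-4 into the endfoot membrane that faces the vessel wall. The channel is held there by a chain of proteins. Agrin and laminins of the basement membrane bind dystroglycan (Dag1), dystroglycan spans the membrane and binds dystrophin (Dmd) or its relative utrophin (Utrn) inside the cell, and alpha-dystrobrevin (Dtna) with the syntrophins ties aquaporin-4 to dystrophin. The potassium channel Kir4.1 (Kcnj10) shares the endfoot and takes up potassium released by neurons. Endfoot aquaporin-4 is known for carrying water into and out of the brain in oedema and for fluid exchange along vessels, which drains in part through the meningeal and cervical lymphatics.

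In the GRCm38 build, which the submitters' processing notes name, GENCODE M21 places Aqp4 at chr18:15389496-15410982, Dtna at chr18:23415135-23659715, Dmd at chrX:82948870-85206141 and Utrn at chr10:12382188-12869365. Agrn lies at chr4:156165290-156197488, Dag1 at chr9:108204634-108263958 and Kcnj10 at chr1:172341210-172374085. The annotation lists 1 protein-coding transcript for Kcnj10 and 3 to 9 for each of the other members, and the deposited values are sums per gene that do not separate them. Coding bases of Dtna are overlapped by an exon of a gene on the opposite strand, Gm47898, and no other member has such an overlap. Reads from Dtna and Gm47898 may be mixed, since the counting program and its use of strand are not given in the sources used here.

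Depth and the make-up of the libraries bear on every value below. Total counts per library ranged from 18100739 to 25091498, and each member had at least 330 counts in every library. The labels call the tissue brain and the series description calls it cortex. Astrocyte markers were present throughout: the summed CPM of 11 genes, where CPM is the count of a gene scaled to the size of its library, ran from 2979 to 4624 in CVST, from 3756 to 6345 in CVST+Ligation and from 4220 to 5254 in 4-PBA, and no gene of the list was at 0 in every library. Markers of brain regions differed between the groups. The sum of 6 cortical neuron genes was 448 to 741 CPM in CVST, 198 to 369 in CVST+Ligation and 146 to 255 in 4-PBA. The sum of 5 midbrain dopamine neuron genes was 17.9 to 19.5 CPM in CVST, 166 to 203 in CVST+Ligation and 224 to 227 in 4-PBA. The sum of 6 hypothalamic genes was above 200 CPM only in 4-PBA, at 277 to 472. CVST+Ligation replicate 2 held 974 CPM of 5 cerebellar genes, against 22.3 to 53.2 in the other libraries. The region sampled and the group therefore cannot be told apart in these libraries, and its part in the results below was not tested. In bulk RNA, fewer cells of a type and less RNA per cell also cannot be told apart.

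**Figure D1:**
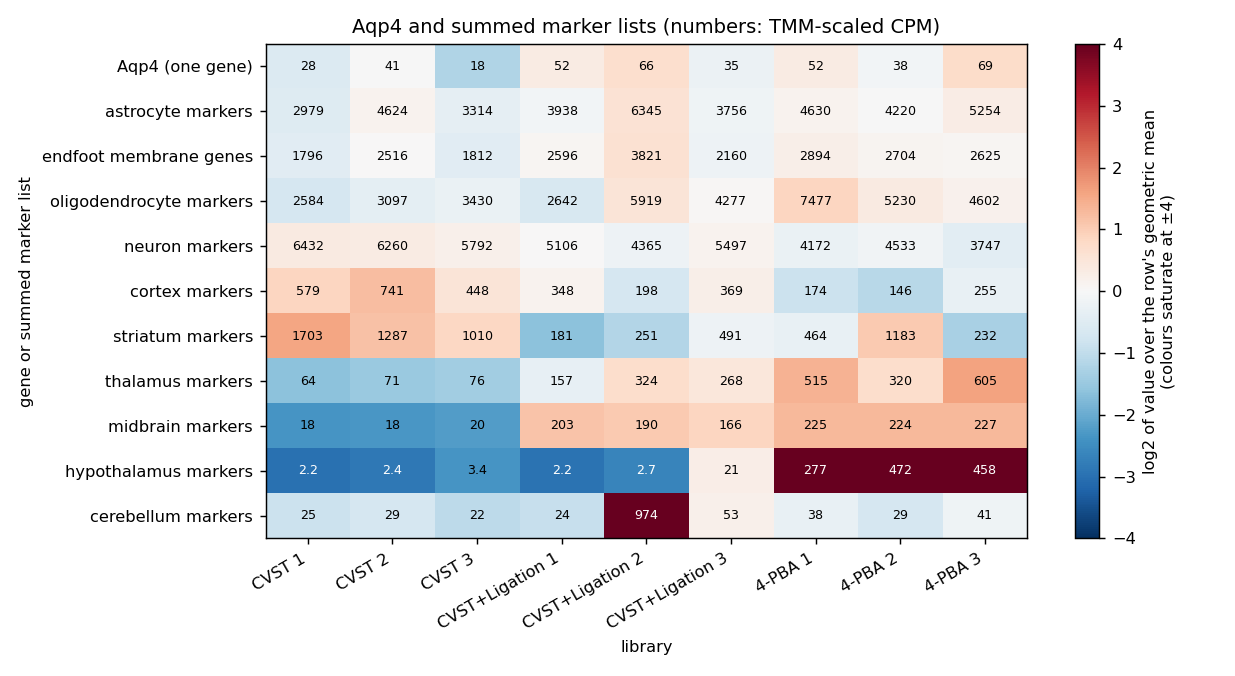
Aqp4 and the summed CPM of marker lists in each of the 9 libraries (columns, 3 per group). Printed numbers are CPM on the TMM scale, colours show the log2 of each value over the geometric mean of its own row, and midbrain markers are at 17.9 to 19.5 CPM in CVST and at 166 or above in the other libraries.

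The 7 genes were expressed at very unequal levels. Levels between genes are compared here as FPKM, the deposited counts scaled by library total and gene length, where the length behind each value equals the GENCODE coding length in 5 of the 7 genes. For Aqp4 it was 1056 bases against 969 coding bases in GENCODE, and for Dmd 11179 against 11054, so these 2 lie a little lower than they would per GENCODE coding base. Over the 9 libraries the mean was 51.7 ± 18.9 FPKM (SD, n = 9) for Kcnj10, 42.3 ± 17.1 for Aqp4, 39.6 ± 2.97 for Dtna and 32.8 ± 7.63 for Dag1. Agrn followed at 18.9 ± 2.48 FPKM, Utrn at 5.95 ± 2.52 and Dmd at 2.27 ± 0.265. Agrn exceeded Utrn in every library and their ranges did not overlap, whereas every other pair of neighbours in this order overlapped in range. Kcnj10 was above Aqp4 in 8 of 9 libraries, Dtna above Dag1 in 8, Dag1 above Agrn in 8 and Utrn above Dmd in 9, and Aqp4 was above Dtna in only 4. The level of Dmd is understated per coding length wherever short transcripts make up part of it, because the whole length enters the FPKM.

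Stability across libraries set the members apart from each other. The coefficient of variation of CPM over the 9 libraries was 6.38% for Dtna, 11.2% for Dmd and 14.2% for Agrn, and it was 22.5% for Dag1, 34.5% for Kcnj10, 37.8% for Aqp4 and 41.4% for Utrn. The median over 5053 tested genes with a mean CPM within the range of the members was 15.8%. Dtna thus varied less than most genes of like abundance (3.05% of them had a lower coefficient), and Utrn, Aqp4 and Kcnj10 varied more than most (93.6%, 91.9% and 89.6% of them had a lower coefficient).

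**Figure D2:**
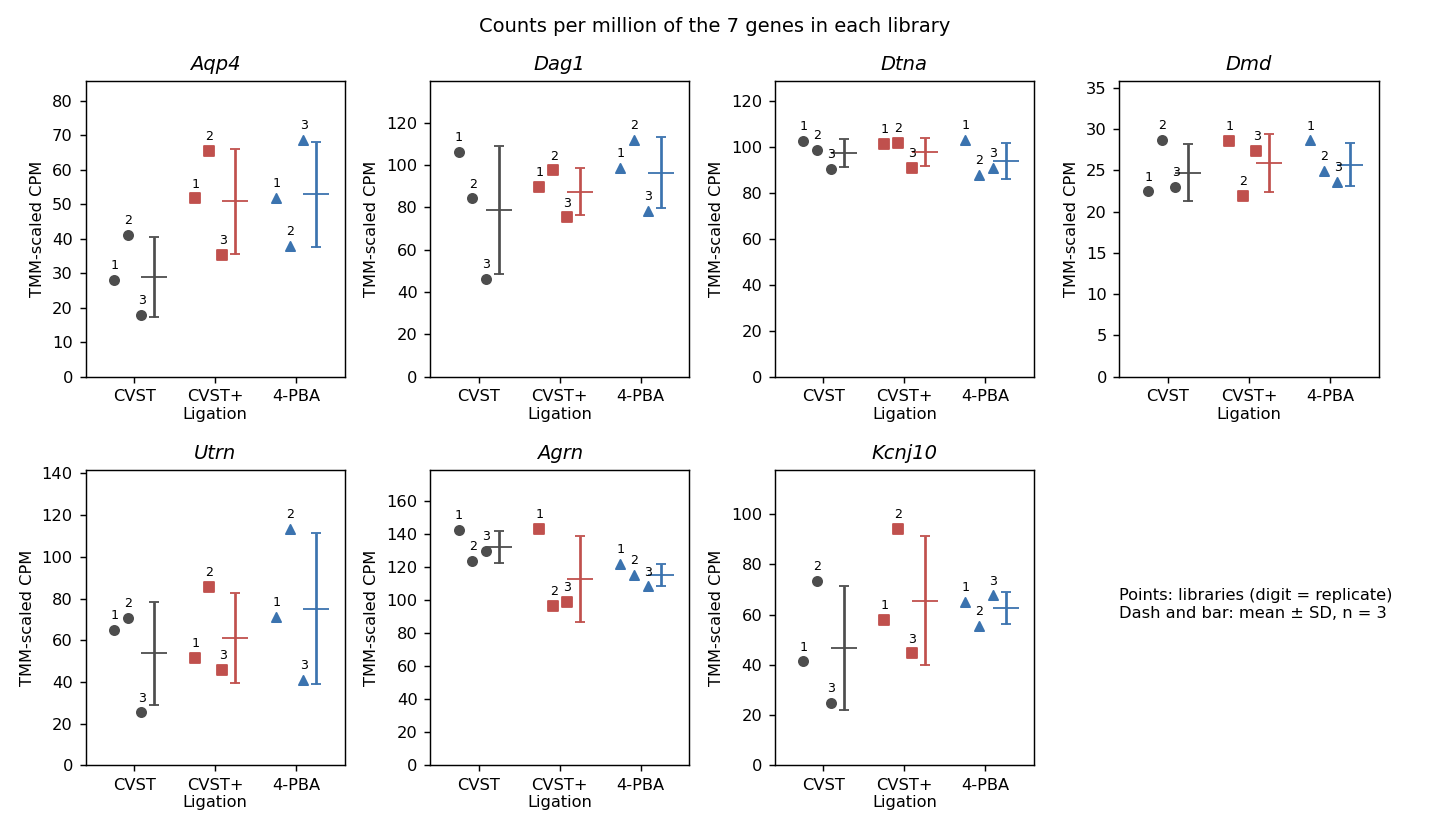
CPM on the TMM scale (vertical axes, starting at 0) of the 7 genes in the 3 groups. Points are libraries with their replicate number and the dash with its bar is the mean ± SD (n = 3). CVST replicate 3 is the lowest of all libraries for Aqp4, Dag1, Utrn and Kcnj10, and Dtna stays between 87.9 and 103 CPM.

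The first comparison, CVST+Ligation against CVST, asks what ligation of the nodes adds to thrombosis. Aqp4 had the largest difference among the 7. Its CPM was 28.1, 41.0 and 17.9 in CVST replicates 1, 2 and 3, and 51.7, 65.5 and 35.3 in CVST+Ligation replicates 1, 2 and 3. Most ligated libraries lay above all CVST libraries, but CVST+Ligation replicate 3 lay below CVST replicate 2, so the groups overlapped. The means were 29.0 ± 11.6 and 50.8 ± 15.1 CPM (SD, n = 3), and the log2 fold change was 0.81 (SE 0.34, 95% interval 0.05 to 1.56), a 1.75-fold higher level. In edgeR's quasi-likelihood test the unadjusted p was 0.0388 and the Benjamini-Hochberg adjusted p over all genes tested was 0.493. Aqp4 was therefore the only 1 of 7 members with an unadjusted p below 0.05, in a comparison where 9.64% of all genes tested had one, and 0 of 7 members passed the adjusted threshold, beside 0.0203% of all genes. No member's groups were apart, against 13.8% of all genes.

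The Aqp4 difference depended on single libraries. In edgeR's test the unadjusted p rose to 0.0923 without CVST replicate 1, 0.139 without CVST replicate 3, 0.0789 without CVST+Ligation replicate 1 and 0.141 without CVST+Ligation replicate 2. It was 0.0104 without CVST replicate 2 and 0.0183 without CVST+Ligation replicate 3. The log2 fold change stayed above 0 each time, between 0.54 and 1.14. Without both CVST replicate 3, which had the least Aqp4, and CVST+Ligation replicate 2, which carried the cerebellar genes, it was 0.31 (unadjusted p 0.352); this pair was chosen after the data were seen. Among markers of astrocytes, 3 of 11 had an unadjusted p below 0.05, all with higher levels in CVST+Ligation, beside 9.64% of all genes in either direction. The log2 fold change was above 0 for 8 of the 11, and the median of the list was 0.54, against 0.00 for all genes tested. Aldh1l1, a folate enzyme used as a general astrocyte marker and singled out here after its values were seen, had a log2 fold change of -0.56 (SE 0.25, unadjusted p 0.0532 in edgeR). Set against the astrocyte sum of its own library, Aqp4 amounted to 5.40 to 9.44 per 1000 CPM of astrocyte markers in CVST and to 9.40 to 13.1 in CVST+Ligation, ranges that still touch. Gfap, an intermediate filament of astrocytes and 1 of the 11 markers, did not follow Aqp4: it was at 608 to 1216 CPM in CVST and at 665 to 800 in CVST+Ligation (log2 fold change -0.23, SE 0.52, unadjusted p 0.664 in edgeR).

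Kcnj10, the potassium channel beside aquaporin-4, showed the next largest difference in the same comparison. It was at 41.4, 73.5 and 25.01 CPM in CVST replicates 1, 2 and 3 and at 57.8, 94.1 and 44.5 in CVST+Ligation replicates 1, 2 and 3. The groups overlapped widely, with CVST replicate 2 above 2 of the 3 ligated libraries. The log2 fold change was 0.49 (SE 0.37, 95% interval -0.35 to 1.33), with an adjusted p of 0.691 in edgeR after Benjamini-Hochberg adjustment. It was 0.98 with an unadjusted p of 0.0181 without CVST replicate 2, 0.17 without CVST replicate 3 and 0.13 without CVST+Ligation replicate 2, so 1 library decides whether a difference is seen.

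Dystroglycan and the proteins under the membrane did not pass the test. Dag1, the receptor for agrin and laminin, was at 106, 84.2 and 46.4 CPM in CVST replicates 1, 2 and 3 and at 89.8, 97.5 and 75.3 in CVST+Ligation. Utrn, the dystrophin relative, was at 65.1, 70.7 and 25.4 CPM in CVST replicates 1, 2 and 3 and at 51.4, 85.7 and 45.9 in CVST+Ligation. For both genes CVST replicate 3 was the lowest library and the other libraries of the 2 groups were intermixed. The log2 fold change was 0.15 for Dag1 (SE 0.27, 95% interval -0.46 to 0.75) and 0.18 for Utrn (SE 0.45, 95% interval -0.82 to 1.18), and without CVST replicate 3 these became -0.14 and -0.18. Dtna, the dystrobrevin, ranged from 90.4 to 103 CPM in CVST and from 90.6 to 101 in CVST+Ligation, and its log2 fold change of 0.01 (SE 0.12) had a 95% interval of -0.25 to 0.27, which leaves room for changes of up to 1.21-fold. Dmd, dystrophin itself, ranged from 22.4 to 28.6 CPM in CVST and from 21.9 to 28.5 in CVST+Ligation, with a log2 fold change of 0.07 (SE 0.17, 95% interval -0.31 to 0.45). The narrow intervals of Dtna and Dmd and the wide interval of Utrn come from the same fit and the same number of libraries.

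Agrn, the basement membrane proteoglycan at the outer end of the chain, was the only member with a lower mean after ligation. It was at 143, 124 and 130 CPM in CVST replicates 1, 2 and 3 and at 143, 96.4 and 99.2 in CVST+Ligation. CVST+Ligation replicates 2 and 3 lay below all CVST libraries, and replicate 1 lay above all of them. The log2 fold change was -0.23 (SE 0.16, 95% interval -0.59 to 0.14), with an adjusted p of 0.675 in edgeR after Benjamini-Hochberg adjustment. Without CVST+Ligation replicate 1 it was -0.44, with an unadjusted p of 0.00873 in edgeR. It was -0.12 without CVST+Ligation replicate 2 and -0.14 without replicate 3, with unadjusted p of 0.473 and 0.463 in edgeR. Without CVST replicates 1, 2 and 3 in turn it was -0.17, -0.27 and -0.26, with unadjusted p of 0.382, 0.193 and 0.189 in edgeR.

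**Figure D3:**
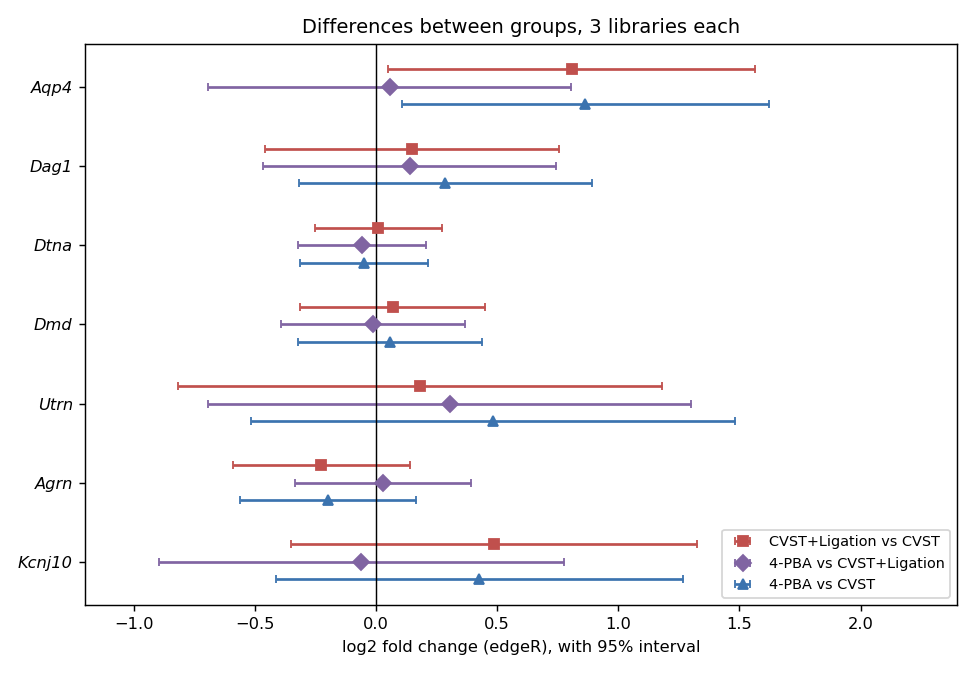
Log2 fold change (horizontal axis) of the 7 genes in the 3 comparisons, from 1 edgeR fit to all 9 libraries, with 95% intervals as bars. Only the intervals of Aqp4 in the comparisons with CVST lie to the right of 0, starting at 0.05 and 0.11.

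The next comparison, 4-PBA against CVST+Ligation, asks what the chaperone does in ligated mice. Aqp4 was at 51.9, 38.0 and 68.6 CPM in 4-PBA replicates 1, 2 and 3, a range that nearly coincides with the 35.3 to 65.5 CPM of CVST+Ligation. Its log2 fold change was 0.06 (SE 0.33, 95% interval -0.69 to 0.81), so differences between 0.619-fold and 1.75-fold lie within the interval. Kcnj10 was at 65.1, 55.5 and 67.6 CPM in 4-PBA, inside the range of CVST+Ligation, with a log2 fold change of -0.06 (SE 0.37). In edgeR's test 0 of 7 members had an unadjusted p below 0.05, where 3.23% of all genes tested had one; the smallest p among them was 0.512. The count over all genes rested on single libraries, at 1497 without CVST+Ligation replicate 2, which carried the cerebellar genes, and 256 without 4-PBA replicate 2, while the count of members stayed at 0. After Benjamini-Hochberg adjustment, edgeR called 0 of 7 members and 0% of all genes (476 genes had an unadjusted p below 0.05, and DESeq2 called 22 genes but no member). No member's groups were apart, against 7.73% of all genes.

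Among the other members, the spread within the 4-PBA group was widest for Utrn, with a coefficient of variation of 48.3%, against 17.4% for Dag1 and 5.84% for Agrn. Utrn was at 71.1, 113 and 41.2 CPM in 4-PBA replicates 1, 2 and 3 and Dag1 at 98.6, 112 and 78.5, so replicate 2 was the highest of all 9 libraries for both and replicate 3 the lowest of its group. The log2 fold change was 0.30 for Utrn (SE 0.44, 95% interval -0.69 to 1.30) and 0.14 for Dag1 (SE 0.27, 95% interval -0.47 to 0.74). For Agrn, Dtna and Dmd it was 0.03, -0.06 and -0.01, each with an interval between -0.39 and 0.39 on the log2 scale. None of the 7 differences exceeded the spread between libraries.

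The last comparison, 4-PBA against CVST, shares its libraries with the other comparisons and is no independent repeat of them. Aqp4 averaged 52.8 ± 15.3 CPM in 4-PBA against 29.0 ± 11.6 in CVST (SD, n = 3), a log2 fold change of 0.86 (SE 0.34, 95% interval 0.11 to 1.62). The groups overlapped, because 4-PBA replicate 2 at 38.0 CPM lay below CVST replicate 2 at 41.0. The unadjusted p in edgeR was 0.0294 and the Benjamini-Hochberg adjusted p 0.26. In edgeR the unadjusted p was 0.0709 without CVST replicate 1, 0.104 without CVST replicate 3, 0.052 without 4-PBA replicate 1 and 0.115 without 4-PBA replicate 3, with log2 fold changes of 0.85, 0.60, 0.89 and 0.63. It was 0.00773 without CVST replicate 2 and 0.0165 without 4-PBA replicate 2, with log2 fold changes of 1.21 and 1.05. Of the 11 astrocyte markers, 3 were higher at an unadjusted p below 0.05 and 8 had a log2 fold change above 0, with a list median of 0.46, whereas Aldh1l1 had -0.55 (SE 0.25, unadjusted p 0.0591 in edgeR). Other cell types moved as well, and their part in the Aqp4 difference was not tested. Of 8 oligodendrocyte markers 7 were higher at an unadjusted p below 0.05 (median 0.97), and their sum was 4602 to 7477 CPM in 4-PBA against 2584 to 3430 in CVST. Of 8 neuronal markers 3 were lower and 1 higher (median -0.43), with sums of 3747 to 4533 CPM against 5792.5 to 6432, and of 8 microglial markers 3 were lower (median -0.29). The oligodendrocyte and neuronal sums did not overlap between the groups. Nor did the microglial sums, at 723 to 914 CPM in 4-PBA against 932 to 1067 in CVST. Of 8 meningeal fibroblast markers 2 were higher at an unadjusted p below 0.05 (median 1.06). So were 3 of 6 choroid plexus and ependymal markers (median 1.22) and 2 of 9 mural cell markers (median 0.39), and the sums of these lists overlapped. Aqp4 was again the only 1 of 7 with an unadjusted p below 0.05, beside 15.4% of all genes, and 0 of 7 passed after adjustment, beside 0.122% of all genes. Agrn was the 1 member of 7 whose groups did not overlap, at 124 to 143 CPM in CVST and 108 to 122 in 4-PBA, but 23.7% of all genes were apart in this comparison and its unadjusted p was 0.252. Among the remaining members, Kcnj10 had a log2 fold change of 0.43 (SE 0.37) and Utrn of 0.48 (SE 0.45). With each library left out in turn, that of Kcnj10 ranged from 0.11 to 0.93. The highest value was without CVST replicate 2, with an unadjusted p of 0.0225 in edgeR.

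A test of whether the 3 groups differ in any way gave Aqp4 an unadjusted p of 0.0589 and the other members 0.352 to 0.913, and 11.1% of all genes were below 0.05. After Benjamini-Hochberg adjustment edgeR called no member and 0.0339% of all genes in this test.

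Library by library, 2 pairs of members were most alike, Aqp4 with Kcnj10 and Dag1 with Utrn. Correlations of log2 CPM over the 9 libraries are given as descriptions only, since the points share library preparation, depth scaling and the regional make-up noted above. Aqp4 and Kcnj10 had a Pearson r of 0.91 (Spearman coefficient 0.87), and 0.92 after group means were taken out. Among 14745 other tested genes Kcnj10 ranked 29th in likeness to Aqp4, and Aqp4 59th in likeness to Kcnj10. Within a library, Kcnj10 was 1.40 to 1.79 times Aqp4 by CPM in CVST, 1.12 to 1.44 times in CVST+Ligation and 0.987 to 1.46 times in 4-PBA. Dag1 and Utrn formed the other pair, with an r of 0.90 (Spearman 0.83), and 0.89 after group means were taken out, and Dag1 ranked 20th in likeness to Utrn and Utrn 66th in likeness to Dag1. Both pairs leaned on their lowest library, and without CVST replicate 3 the r was 0.80 for Aqp4 and Kcnj10 and 0.82 for Dag1 and Utrn.

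**Figure D4:**
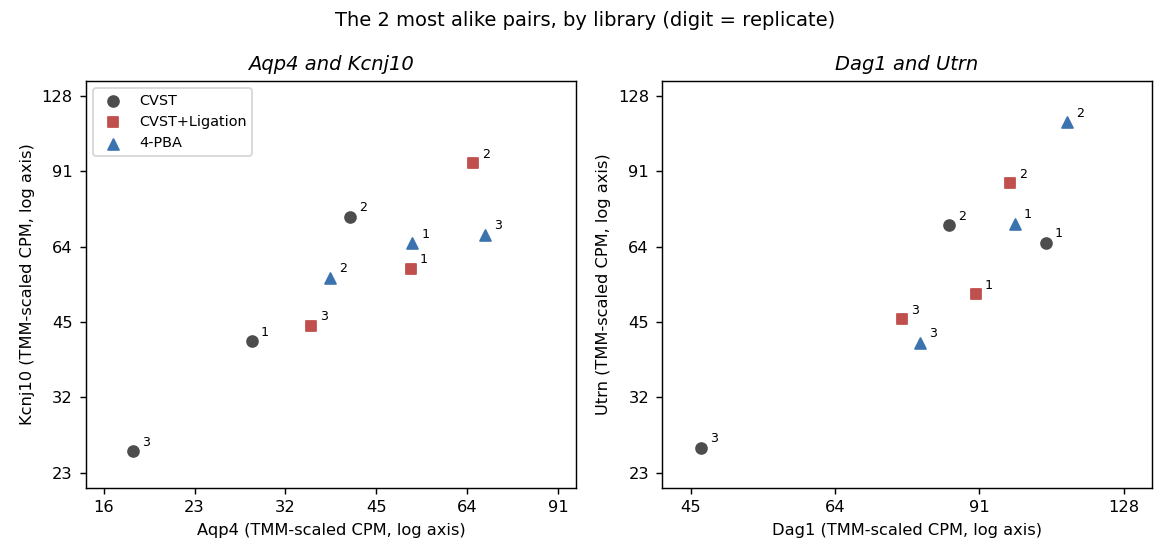
Aqp4 against Kcnj10 (left) and Dag1 against Utrn (right) in the 9 libraries, as CPM on the TMM scale with both axes logarithmic. Digits are replicate numbers and colours and shapes are groups. CVST replicate 3 sits at the low end of both plots, at 17.9 and 25.01 CPM on the left and 46.4 and 25.4 CPM on the right.

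Other pairs were looser, but Kcnj10 also ran partly with the other pair. It had an r of 0.66 with Utrn (Spearman 0.45) and 0.64 with Dag1 (Spearman 0.13), and of 0.62 and 0.57 after group means were taken out. Aqp4 had an r of 0.54 with Dag1 (Spearman 0.13), 0.43 with Utrn and 0.30 with Dtna, and of -0.43 with Agrn. Dmd had an r between 0.10 and 0.19 with each other member, so dystrophin did not track utrophin (r = 0.10). By FPKM, Utrn was 1.16 to 3.04 times Dmd in CVST, 1.76 to 4.10 times in CVST+Ligation and 1.83 to 4.77 times in 4-PBA, while Dmd stayed between 1.95 and 2.61 FPKM and Utrn ran from 2.26 to 10.7 FPKM.

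The tested genes most like Aqp4 over the 9 libraries were Zcchc24 (r = 0.96), Dnajc3 (r = 0.95), Lonrf3 (r = 0.95), Cald1 (r = 0.95) and Vav3 (r = 0.95). Dnajc3 encodes a co-chaperone of the endoplasmic reticulum that takes part in the unfolded protein response, Cald1 the actin-binding protein caldesmon and Vav3 an exchange factor for small GTPases. Their levels ran from 31.3 to 47.0 CPM for Dnajc3, from 10.9 to 33.9 for Cald1 and from 1.90 to 17.0 for Vav3. The most alike gene was Slc16a12 for Dag1 (r = 0.98), Asxl1 for Dtna (r = 0.96), Nipal3 for Utrn (r = 0.97), Trank1 for Agrn (r = 0.89) and Ankrd34c for Kcnj10 (r = 0.98). For Dmd it was Ccdc110 (r = 0.95), whose level of at most 0.71 CPM rests on few counts. With 9 points and 14745 candidates, high values of r for the best match are found by selection.

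Start-site sequence is shown for Kcnj10, Dag1 and Utrn, of the 2 pairs, and for Dmd, whose separate starts are merged in the deposited sums. Each run gives the 250 bases before a start listed by RefSeq (GRCm38.p6), 5′ to 3′ on the strand of the gene, with GC boxes (GGGCGG) and CCAAT boxes (CCAAT), on either strand, in capitals. They are Kcnj10 at chr1:172340960-172341209 on the plus strand, Dag1 at chr9:108263959-108264208 and Utrn at chr10:12861736-12861985 on the minus strand, and Dmd at chrX:82948620-82948869 and chrX:85048045-85048294, both on the plus strand.
Kcnj10: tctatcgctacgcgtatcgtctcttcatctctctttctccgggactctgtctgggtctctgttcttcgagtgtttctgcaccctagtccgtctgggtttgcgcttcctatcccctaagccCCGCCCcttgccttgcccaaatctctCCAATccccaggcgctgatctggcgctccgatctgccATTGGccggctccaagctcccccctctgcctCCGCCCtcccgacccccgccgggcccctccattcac
Dag1: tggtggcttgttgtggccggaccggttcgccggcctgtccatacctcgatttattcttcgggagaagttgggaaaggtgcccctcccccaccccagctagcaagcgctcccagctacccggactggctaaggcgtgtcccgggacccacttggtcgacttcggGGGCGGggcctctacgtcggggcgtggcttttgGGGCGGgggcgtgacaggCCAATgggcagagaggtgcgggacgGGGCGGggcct
Utrn: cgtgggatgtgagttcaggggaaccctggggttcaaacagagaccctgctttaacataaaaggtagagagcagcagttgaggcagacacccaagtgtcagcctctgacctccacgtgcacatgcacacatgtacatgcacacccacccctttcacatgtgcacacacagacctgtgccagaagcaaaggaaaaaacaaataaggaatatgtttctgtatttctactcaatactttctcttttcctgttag
Dmd, upstream start: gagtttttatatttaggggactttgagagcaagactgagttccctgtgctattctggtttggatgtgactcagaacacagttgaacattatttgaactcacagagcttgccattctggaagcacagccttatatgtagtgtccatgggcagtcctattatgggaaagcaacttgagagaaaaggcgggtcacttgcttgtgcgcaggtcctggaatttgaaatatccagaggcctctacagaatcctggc
Dmd, downstream start: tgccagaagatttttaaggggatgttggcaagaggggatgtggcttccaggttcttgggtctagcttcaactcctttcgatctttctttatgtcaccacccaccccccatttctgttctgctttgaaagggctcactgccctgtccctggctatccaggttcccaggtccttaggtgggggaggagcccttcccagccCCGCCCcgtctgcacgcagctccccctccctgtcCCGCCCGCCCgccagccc

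The Kcnj10 window held 2 GC boxes and 2 CCAAT boxes in 62% G+C, and the Dag1 window 3 GC boxes and 1 CCAAT box in 67.6% G+C. A second Dag1 start, whose window overlaps the one shown, had 3 GC boxes and 2 CCAAT boxes in 74.8% G+C. The Utrn window, at a start inside the gene, held neither box in 46.8% G+C. No window at the upstream end of Utrn was among those matched, so sequence there was not examined. The upstream Dmd window held neither in 45.2% G+C and the downstream one 3 GC boxes, 2 of them overlapping, in 60% G+C. Over 32851 start windows of the same length, 32.7% held a GC box and 33.9% a CCAAT box, and the median G+C was 52.4%. The full ER stress response element, CCAAT and CCACG spaced by 9 bases, was in none of 8 windows of the 5 members matched and in 0.113% of all windows. These matches describe letters in the windows and no more.

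Partners of dystrophin outside the 7 genes were followed with a list of 13 syntrophins, sarcoglycans, beta-dystrobrevin and sarcospan, of which 11 were tested. Against CVST, 1 of the 11 had an unadjusted p below 0.05 in CVST+Ligation, the sarcoglycan Sgcz at a lower level (log2 fold change -1.01, SE 0.44), beside 9.64% of all genes. In 4-PBA, where 15.4% of all genes had such a p, 2 were higher and 1 lower: Sntb1, a syntrophin, at 2.71 to 4.88 CPM against 0.892 to 1.46 in CVST (log2 fold change 1.75, SE 0.37), Sspn, sarcospan, with 0.98 (SE 0.38), and Dtnb, beta-dystrobrevin, at 51.4 to 67.6 CPM against 80.1 to 101 (log2 fold change -0.61, SE 0.20). Sntb1 came closest to the adjusted threshold, with a Benjamini-Hochberg adjusted p of 0.0704 in edgeR, on 21 to 109 counts per library. It was also the 1 gene of the 11 below an unadjusted 0.05 between 4-PBA and CVST+Ligation (log2 fold change 1.07, SE 0.36), beside 3.23% of all genes, with a Benjamini-Hochberg adjusted p of 1.0 in edgeR. The median of the list was -0.17 for CVST+Ligation against CVST, 0.05 for 4-PBA against CVST+Ligation and -0.12 for 4-PBA against CVST, beside medians of all genes within 0.02 of 0.

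The enzymes that build the matrix-binding sugar chain of dystroglycan stayed close to the middle of all genes, with list medians of -0.07, 0.02 and -0.05 in the 3 comparisons in that same order. Of 17 tested, 0 had an unadjusted p below 0.05 in edgeR after ligation or between 4-PBA and CVST+Ligation, beside 9.64% and 3.23% of all genes. Only Dpm3, a subunit of the mannose donor synthase, was lower in 4-PBA than in CVST (log2 fold change -0.82, SE 0.31, unadjusted p 0.0252), beside 15.4% of all genes in either direction, and its groups overlapped.

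The basement membrane, where agrin and the laminins lie, had 17 of 17 genes tested. After ligation, Lama1 (log2 fold change 1.25, SE 0.50) and Col18a1 (1.37, SE 0.60) were higher and Col4a2 lower (-0.55, SE 0.18) at an unadjusted p below 0.05, beside 9.64% of all genes. Col4a2, a type IV collagen chain, was at 56.4 to 58.9 CPM against 77.6 to 92.6 in CVST, whereas Lama1 and Col18a1 overlapped between the groups. Against CVST+Ligation, the 4-PBA group had the nidogen Nid2 higher (0.59, SE 0.25). Against CVST it had 4 genes higher, among them the laminin chain Lama2 (0.78, SE 0.26), Lama1 (1.45, SE 0.50) and the nidogen Nid1 (1.01, SE 0.35), beside 15.4% of all genes in either direction. The median of the list was 0.17 for CVST+Ligation against CVST, 0.30 for 4-PBA against CVST+Ligation and 0.44 for 4-PBA against CVST, and 0 of 17 passed after Benjamini-Hochberg adjustment in any. Summed markers of meningeal fibroblasts, which also make these proteins, were at 78.0 to 121 CPM in CVST, 103 to 246 in CVST+Ligation and 108 to 366 in 4-PBA, and their part in these values was not tested.

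Other membrane proteins of astrocytes, 12 of 12 tested, leaned the same way as Aqp4 after ligation, with 10 of 12 log2 fold changes above 0 and a median of 0.51. Those with an unadjusted p below 0.05 were 4, all higher, against 9.64% of all genes, among them the glutamate transporter Slc1a3 (0.53, SE 0.18), the Kir4.1 partner Kcnj16 (0.60, SE 0.25) and the sodium pump subunit Atp1b2 (0.62, SE 0.27). Slc1a3 was at 188 to 270 CPM in CVST and 261 to 385 in CVST+Ligation, and in each of these 4 genes the groups overlapped. None passed Benjamini-Hochberg adjustment in edgeR, where Slc1a3 had an adjusted p of 0.405. Markers of other cell types moved in the same comparison, and their part in these values was not tested. Of 8 oligodendrocyte markers, 8 had a log2 fold change above 0 (median 0.44, 1 higher at an unadjusted p below 0.05), and of 9 mural cell markers 7 did (median 0.22, 2 higher). Of 8 microglial markers 0 did (median -0.31, 4 lower), and of 8 neuronal markers 2 did (median -0.20, 2 lower). Of 8 meningeal fibroblast markers, 8 had a log2 fold change above 0 (median 0.86, 0 at an unadjusted p below 0.05). Summed microglial markers were at 932 to 1067 CPM in CVST and 726 to 791 in CVST+Ligation, so these groups were apart. Neuronal sums were apart too, at 5792.5 to 6432 CPM in CVST and 4365 to 5497 in CVST+Ligation. The oligodendrocyte sums of 2584 to 3430 and 2642 to 5919 CPM overlapped. Against CVST, the 4-PBA group had a list median of 0.44 with 1 of 12 genes below an unadjusted 0.05, beside 15.4% of all genes, the chloride channel Clcn2, at a lower level (-0.36, SE 0.15). Against CVST+Ligation, Trpv4, a calcium channel, was the 1 gene of 12 (1.38, SE 0.59), beside 3.23% of all genes. Its groups overlapped, at 2.48 to 10.8 CPM in 4-PBA and 1.41 to 3.56 in CVST+Ligation.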

How the data were processed

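RNA of 9 mouse brain samples, 3 in each of 3 groups taken from the sample titles, was analysed from deposited tables. According to the methods and the submitters' notes, reads were filtered with fastp and aligned with HISAT2 to mm10 (GRCm38), and StringTie and RSEM are named for quantification. The program that counted reads is not given in the sources used here. The authors deposited unnormalized counts for 20731 genes, and FPKM values that the methods call TPM. For 17446 of 20731 genes, the deposited FPKM equals the count over the library total and a whole-number length, within a relative tolerance of 1e-06. For 96.6% of 16796 genes matched by symbol that length equals the union of GENCODE M21 coding bases, so FPKM is per coding length for most genes (Aqp4 and Dmd are exceptions). Whether reads in untranslated parts were counted is unknown.

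Counts were fitted in R 4.3.3 with edgeR 4.0.16 (TMM scaling, filterByExpr, quasi-likelihood test, no covariates, all 9 libraries in 1 fit), with Benjamini-Hochberg adjustment over 14746 genes. Intervals are 95% and come from this fit. CPM is on the TMM scale, and log2 CPM uses a prior count of 2. The steps were tested on counts simulated with 200 changed genes between CVST and CVST+Ligation. At an adjusted p below 0.05, edgeR recovered 93 of these, with 4 false calls. The 93 comprised 19 genes changed 2-fold and 74 changed 4-fold, so most 2-fold changes were missed. The methods assign 3 mice per group to sequencing and the labels give each library as a separate sample without naming its mouse, so p-values measure the spread between these libraries. Alternatives were DESeq2 1.42.0, other scalings and filters, limma 3.58.1 on the FPKM values, a replicate block and leaving libraries out. The genes named are all 7 members, up to 3 genes of each of 5 lists with the smallest unadjusted p below 0.05, Gfap, Aldh1l1 (chosen after its values were seen), and the genes most like each member. Members, lists and markers were chosen with earlier results of these data known. Some genes that this rule selects are not reported here. Promoter windows come from a RefSeq table in which 5 of the 7 members were matched.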

Additional observations from a re-analysis of the deposited data

How the results depend on the processing

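The members had at least 330 counts in each library. No member passed an adjusted threshold under any alternative. The count of members with an unadjusted p below 0.05 was 1, 0 and 1 in the 3 comparisons under every scaling, filter and tool. With each library left out in turn it ranged from 0 to 2 for CVST+Ligation against CVST and for 4-PBA against CVST, and it was 0 in both without CVST replicate 3 and CVST+Ligation replicate 2 together. In the test over all groups it was 0, but 1 with DESeq2 and 1 with limma on log2(FPKM + 1) and on log2(FPKM + 0.1), and 0 to 2 with a library left out. The cause was not tested. Of 336 alternative fold changes of the members, 295 kept their direction and 41 changed sign, none at an adjusted p below 0.05. With all libraries in the fit, the changes of sign for 4-PBA against CVST+Ligation were Dmd at 0.021 with total counts and at 0.017 and 0.024 with limma at a pseudocount of 1 and of 0.1, and Kcnj10 at 0.064 with the replicate block and at 0.034 and 0.035 with limma. For 4-PBA against CVST, Dtna was at 0.021 with total counts and at 0.020 in both limma fits. Without CVST replicate 3 and CVST+Ligation replicate 2 together, CVST+Ligation against CVST gave -0.23 for Dag1, -0.088 for Dtna, -0.50 for Utrn and -0.19 for Kcnj10, 4-PBA against CVST+Ligation gave -0.072 for Agrn and 0.30 for Kcnj10, and 4-PBA against CVST gave -0.0033 for Dag1 and -0.010 for Dmd. With single libraries left out, CVST+Ligation against CVST ranged from -0.14 to 0.42 for Dag1, -0.061 to 0.060 for Dtna, -0.012 to 0.19 for Dmd, -0.18 to 0.43 for Utrn and 0.13 to 0.98 for Kcnj10. Agrn ranged from -0.44 to -0.12 in this comparison. For 4-PBA against CVST+Ligation the ranges were -0.18 to 0.29 for Aqp4, -0.11 to 0.078 for Dmd, -0.12 to 0.64 for Utrn, -0.062 to 0.25 for Agrn and -0.28 to 0.31 for Kcnj10, and for 4-PBA against CVST they were -0.0031 to 0.57 for Dag1 and -0.014 to 0.19 for Dmd. The r of Aqp4 and Kcnj10 ranged from 0.80 to 0.95 and that of Dag1 and Utrn from 0.82 to 0.92.

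Counts over all genes at an adjusted p below 0.05 moved more. For CVST+Ligation against CVST, 3 genes became 260 with DESeq2, 13 with limma on log2(FPKM + 0.1), 1 with the replicate block or only the groups compared and 0 with at least 10 counts in every library. For 4-PBA against CVST+Ligation, 0 became 22 with DESeq2, 2 with limma on log2(FPKM + 1) and 1 with the block. For 4-PBA against CVST, 18 became 834 with DESeq2, 234 with only the groups compared, 134 and 87 with limma, 112 with at least 1 count and 6 with at least 10 counts. In the test over all groups, 5 became 635 with DESeq2, 22 and 15 with limma, 3 with total counts and 0 with at least 10 counts. With single libraries left out, the counts ranged from 0 to 7, from 0 to 2, from 2 to 162 (highest without CVST replicate 3) and from 0 to 111 (highest without CVST+Ligation replicate 2) in the same order. Without CVST replicate 3 and CVST+Ligation replicate 2 together they were 82, 0, 967 and 435. The replicate numbers were not taken to pair the samples. A correlation above 0.1 was found in 4 of 9 same-numbered pairs, with 0.32 the highest, and in 1 of 18 pairs with other numbers, at 0.13. Such correlations were thus more frequent among same-numbered pairs, and what these share was not tested. With the block, Aqp4 had log2 fold changes of 0.82 (unadjusted p 0.0479) and 0.96 (unadjusted p 0.0297) against CVST, and the block changed no member's call.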

Other observations

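Of the 10 other aquaporin genes, 4 passed the filter on low counts. At an unadjusted p below 0.05, 1 of the 4 (Aqp6) differed between CVST+Ligation and CVST, beside 9.64% of all genes, and 2 (Aqp1 and Aqp6) between 4-PBA and CVST+Ligation, beside 3.23%. None of the 4 did between 4-PBA and CVST, and the values of both genes rest on few counts. Aqp1, the aquaporin of the choroid plexus, was at 2.80, 1.77 and 0.217 CPM in CVST replicates 1, 2 and 3, at 0.496, 0.155 and 0.703 in CVST+Ligation, and at 4.55, 7.49 and 0.724 in 4-PBA, on 3 to 178 counts. Its log2 fold change was 3.20 (SE 1.01) for 4-PBA against CVST+Ligation, with an unadjusted p of 0.0107 and a Benjamini-Hochberg adjusted p of 1.0 in edgeR. Summed choroid plexus and ependymal markers, including Ttr, were at 794 to 988 CPM in CVST, 25.97 to 866 in CVST+Ligation and 456 to 3126 in 4-PBA. Aqp6 stood at 7.47 CPM, or 145 counts, in CVST+Ligation replicate 2, the library with the cerebellar genes, and at 2 to 11 counts in every other library. Its log2 fold change was 3.79 (SE 1.32) for CVST+Ligation against CVST and -3.01 (SE 1.24) for 4-PBA against CVST+Ligation, with Benjamini-Hochberg adjusted p-values of 0.415 and 1.0 in edgeR.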
